A study of Canis lupus familiaris with 45 samples.

Results

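TIMM8A and FMC1, nuclear genes for small proteins that work in the building of mitochondria, are 2 of the 6540 genes that the array names, and 3 of its 23836 probe sets carried one of these symbols alone. TIMM8A was measured by the probe sets 1604997_at and 1595971_s_at and FMC1 by 1599912_at, and all 3 passed the filter on dim probe sets. They were chosen on the measured log2 differences between paced and Day-0 dogs, so those differences are described here without a test. The values compared are log2 array signals, averaged over the 3 arrays of a dog. The 15 other genes whose symbols start with TIMM or TOMM, with 23 probe sets, served as comparison.

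The left ventricle was sampled as transmural sections from 15 male, age-matched dogs in 5 groups of 3. The Day-0 dogs were unpaced. In the other groups heart failure was induced by pacing the right ventricle at 240 per minute, started within days of a thoracotomy for the pacemaker, and it was kept up for 3 days in the Day-3 dogs, for 1 week in the Week-1 dogs, for 2 weeks in the Week-2 dogs and for 3 to 4 weeks in the End-stage dogs. The labels do not say whether the Day-0 dogs had the operation. RNA was isolated 3 times from each dog and each isolation had its own array, 45 arrays in all.

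Most mitochondrial proteins are made in the cytosol and enter through the TOM complex of the outer membrane. Presequence proteins go on through the TIM23 complex, while carriers of the inner membrane are escorted across the space between the membranes by rings of small TIM proteins and inserted by the TIM22 complex. TIMM8A pairs with TIMM13 in one such ring, which in human cells handles a narrow set of clients that includes TIMM23 and the aspartate/glutamate carriers SLC25A12 and SLC25A13; loss of human TIMM8A causes the deafness-dystonia syndrome. FMC1 is known from yeast, where Fmc1 is needed at high temperature for assembly of the F1 part of ATP synthase, together with the chaperone Atp12, whose mammalian counterpart is ATPAF2. In the heart these steps feed organelles that supply most of the ATP for contraction. In the dog annotation TIMM8A lies on chromosome X between TAF7L and BTK, and FMC1 on chromosome 16 between LOC119869570 and UBN2.

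The trimmed mean signal was set to the same value on every array by the authors, and array medians ran from 33.3 to 48.5. Of 10 cardiomyocyte markers 9 were on the array, and all 9 lay above the lowest level tested. In paced dogs their summed signal ran from 62500 to 93100, and in Day-0 dogs from 67200 to 101000. A pair of dogs stood apart: among the 6 arrays of End-stage dog 1 and Week-1 dog 1, 4 most resembled an array of the other dog of the pair over 200 probe sets that tell dogs apart, against 0 of the other 39 arrays. Isolation 2 of Week-1 dog 1 and isolation 1 of End-stage dog 1 matched each other at a Pearson r of 0.74. With the other arrays of their own dogs their best r was -0.12 and -0.16. Whether each array carries the right dog label could not be settled, so the means of these 2 dogs may mix animals. The Week-1 and End-stage differences of TIMM8A and FMC1 are also given without these 2 dogs. For the comparison and list genes this is done for some only, in a paragraph of their own.

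In TIMM8A 1604997_at, the 3 Day-0 dogs had log2 signals of 9.54, 9.70 and 9.56. The Day-3 dogs had 9.28, 8.92 and 8.82, and the Week-1 dogs 8.90, 8.80 and 9.13. The Week-2 dogs had 8.88, 8.87 and 8.70, and the End-stage dogs 8.91, 9.09 and 8.99. All 12 paced dogs lay below all 3 Day-0 dogs, with a gap of 0.27 between the highest paced dog, Day-3 dog 1, and the lowest Day-0 dog. Group means were 9.60 ± 0.09 at Day-0, 9.01 ± 0.24 at Day-3, 8.94 ± 0.17 at Week-1, 8.82 ± 0.10 at Week-2 and 9.00 ± 0.09 at End-stage (SD, n = 3 dogs each). The signal was thus 1.51-fold lower at Day-3, 1.58-fold lower at Week-1, 1.72-fold lower at Week-2 and 1.52-fold lower at End-stage than at Day-0, log2 differences of -0.60, -0.66, -0.78 and -0.60 (SE 0.13 each). The difference was present after 3 days of pacing, and the level at End-stage lay beside that at Day-3.

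The other TIMM8A probe set, 1595971_s_at, read 7.37, 8.05 and 7.94 in the Day-0 dogs. It read 7.06, 7.27 and 6.83 in the Day-3 dogs and 7.25, 7.05 and 7.39 in the Week-1 dogs. It read 6.87, 7.13 and 7.10 in the Week-2 dogs and 7.10, 7.22 and 7.49 in the End-stage dogs. Day-0 dog 1 stood well below the other Day-0 dogs, so that 10 of 12 paced dogs lay below all of Day-0; Week-1 dog 3 and End-stage dog 3 were the exceptions. Group means were 7.79 ± 0.37 at Day-0, 7.05 ± 0.22 at Day-3, 7.23 ± 0.17 at Week-1, 7.03 ± 0.15 at Week-2 and 7.27 ± 0.20 at End-stage (SD, n = 3 dogs each). The log2 differences from Day-0 were -0.73 at Day-3, -0.56 at Week-1, -0.75 at Week-2 and -0.52 at End-stage (SE 0.19 each), or 1.66-, 1.47-, 1.69- and 1.43-fold lower. Both probe sets of the gene therefore ran the same way in every paced group. The suffix _s_at marks a probe set whose probes can match several transcripts, so its signal need not come from TIMM8A alone.

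FMC1 had log2 signals of 9.20, 9.78 and 9.54 in the Day-0 dogs. It had 8.92, 8.56 and 9.19 in the Day-3 dogs and 8.61, 8.63 and 8.67 in the Week-1 dogs. It had 8.69, 8.66 and 8.92 in the Week-2 dogs and 8.82, 9.09 and 9.11 in the End-stage dogs. All 12 paced dogs were below all Day-0 dogs, but by only 0.01 between Day-3 dog 3 and Day-0 dog 1. Group means were 9.50 ± 0.29 at Day-0, 8.89 ± 0.32 at Day-3, 8.64 ± 0.03 at Week-1, 8.76 ± 0.14 at Week-2 and 9.00 ± 0.16 at End-stage (SD, n = 3 dogs each). FMC1 was 1.53-fold lower at Day-3, 1.82-fold lower at Week-1, 1.68-fold lower at Week-2 and 1.41-fold lower at End-stage than at Day-0, log2 differences of -0.62, -0.87, -0.75 and -0.50 (SE 0.17 each). The 3 Week-1 dogs were nearly equal, although 2 arrays of Week-1 dog 3 lay far apart, with an SD of 0.56 over its 3 isolations.

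**Figure D1:**
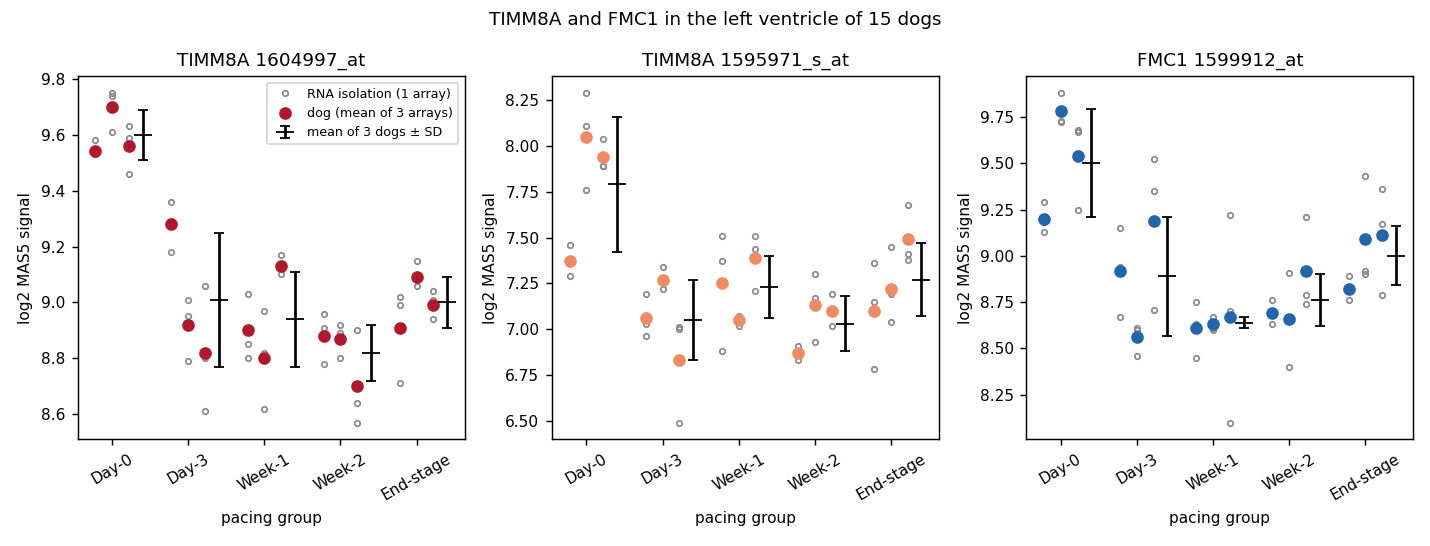
Log2 signal of the 2 TIMM8A probe sets and of FMC1 (vertical axes, each with its own range) in the 5 groups ordered by length of pacing (horizontal axes). Small open circles are RNA isolations, filled points are dogs (mean of 3 arrays), and the bars are means of 3 dogs ± SD; the Day-0 dogs stand above nearly all paced dogs, and Day-0 dog 1 is the lowest Day-0 dog in each panel.

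Over all 12 paced dogs the mean was lower than in the 3 Day-0 dogs by 1.58-fold for 1604997_at, 1.56-fold for 1595971_s_at and 1.61-fold for FMC1, log2 differences of -0.66 (SE 0.10), -0.64 (SE 0.15) and -0.68 (SE 0.13). This pooled comparison was added after the data were seen. Of all 14302 probe sets tested, 1.61% had all 12 paced dogs below all Day-0 dogs, and 26.6% had all 4 paced group means below Day-0. With 1 paced group at a time set against Day-0, 6.44% of probe sets had no overlap and were lower at Day-3, 9.4% at Week-1, 9.21% at Week-2 and 7.94% at End-stage. Nothing is read from the members' own counts, since these comparisons chose them. Without Week-1 dog 1 and End-stage dog 1, 10 of 10 paced dogs lay below Day-0 for 1604997_at and for FMC1, and 8 of 10 for 1595971_s_at. The log2 differences from Day-0 without these dogs were -0.64 at Week-1 and -0.56 at End-stage for 1604997_at, -0.57 and -0.43 for 1595971_s_at, and -0.85 and -0.41 for FMC1.

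In whole tissue, fewer cells of a type and less RNA per cell cannot be told apart. For the medians here, each marker gene was read by its brightest probe set. So read, all 9 cardiomyocyte marker genes had a mean below Day-0 in every paced group. Of their 28 probe sets tested, 4, 4, 5 and 4 were lower without overlap in order of pacing, and 1, 0, 1 and 0 higher. Of all probe sets 6.44%, 9.4%, 9.21% and 7.94% were lower in this way. The median log2 differences of the 9 genes were -0.12 at Day-3, -0.19 at Week-1, -0.17 at Week-2 and -0.18 at End-stage. With Week-1 dog 1 and End-stage dog 1 left out, these medians were -0.05 at Week-1 and -0.02 at End-stage, with 8 and 5 of the 9 genes below 0. The median of the 4 fibroblast markers tested was 0.51, 0.49, 0.30 and 0.34 in the same order, and that of the 6 macrophage markers 0.43, 0.27, 0.29 and 0.22. Without those 2 dogs the fibroblast median was 0.66 at Week-1 and 0.51 at End-stage, and the macrophage median 0.42 and 0.36. The summed fibroblast signal ran from 5710 to 11000 in paced dogs and from 5630 to 8580 in Day-0 dogs. The summed signal of 5 endothelial markers ran from 4490 to 4950 in Week-1 dogs, all below the 5220 to 6150 of Day-0 dogs, while the other paced groups, at 5170 to 6310, overlapped Day-0. The sum of 5 smooth muscle and pericyte markers ran from 5160 to 5450 in End-stage dogs, all below the 6380 to 8280 of Day-0 dogs, while the other paced groups, at 5730 to 8470, overlapped Day-0. The 2 adipocyte markers, 1 of them below the lowest level tested, summed to 105 to 594 in Week-1 dogs, all above the 51.1 to 94.2 of Day-0 dogs, and the lymphocyte and macrophage sums overlapped Day-0 in each paced group. The actin 3-prime over 5-prime log2 ratio, a sign of RNA integrity, was -2.44, -2.40, -2.29 and -2.27 in the paced groups in order of pacing, and -2.70 at Day-0; that of GAPDH was between -0.06 and -0.10 in the paced groups and -0.05 at Day-0. The part of these in the levels of TIMM8A and FMC1 was not tested.

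Neither gene passed the test among Day-3, Week-1 and End-stage, the 3 of 6 pairs of paced groups that were tested. The pairs with Week-2, whose values had a part in the choice of members, have no test. The choice rested on differences between paced and Day-0 dogs, so values of the 3 tested groups may also have had a part in it. Over all probe sets limma called 0.0% of all probe sets in either direction in each of the 3 comparisons; with all 45 arrays fitted and the dog as a random block it called 7 for Week-1 minus Day-3, 16 for End-stage minus Day-3 and 0 for End-stage minus Week-1, without TIMM8A or FMC1. End-stage minus Week-1 in FMC1 came closest: the End-stage dogs averaged 9.00 ± 0.16 and the Week-1 dogs 8.64 ± 0.03 (SD, n = 3 each), with all 3 End-stage dogs above all 3 Week-1 dogs, as in 3.32% of all probe sets. That log2 difference of 0.37 (95% interval 0.01 to 0.73) had an unadjusted p of 0.0454 and a Benjamini-Hochberg adjusted p of 0.9996 by limma. Without Week-1 dog 1 and End-stage dog 1 it was 0.45 (limma adjusted p = 0.9999). FMC1 differed by -0.25 (-0.61 to 0.11) for Week-1 minus Day-3 and by 0.12 (-0.24 to 0.47) for End-stage minus Day-3, and without those dogs by -0.24 and 0.21.

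TIMM8A 1604997_at differed by -0.06 (95% interval -0.34 to 0.22) for Week-1 minus Day-3, by -0.01 (-0.29 to 0.27) for End-stage minus Day-3 and by 0.05 (-0.23 to 0.34) for End-stage minus Week-1. TIMM8A 1595971_s_at differed by 0.18 (-0.22 to 0.57), 0.22 (-0.18 to 0.61) and 0.04 (-0.36 to 0.44) in the same comparisons. All adjusted p of TIMM8A were 0.9939 or 0.9996 by limma. Without Week-1 dog 1 and End-stage dog 1 the differences were -0.04, 0.04 and 0.08 for 1604997_at and 0.16, 0.30 and 0.14 for 1595971_s_at, with limma adjusted p of 0.8835 to 0.9999.

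In order of level, 1604997_at ran from Week-2 through Week-1, End-stage and Day-3 to Day-0, and only the step between Day-3 and Day-0, of 0.60, had no overlap between neighbouring groups. FMC1 ran from Week-1 through Week-2, Day-3 and End-stage to Day-0, and only its step between End-stage and Day-0, of 0.50, had none. For 1595971_s_at the order was Week-2, Day-3, Week-1, End-stage and Day-0, and every pair of neighbours overlapped. Without Week-1 dog 1 and End-stage dog 1, End-stage and Day-3 changed places in 1604997_at, with a step of 0.56 between End-stage and Day-0, and the other orders stayed as given. Within the 12 paced dogs the 2 TIMM8A probe sets correlated at a Pearson r of 0.35, 1604997_at and FMC1 at 0.15, and 1595971_s_at and FMC1 at -0.09, and without those 2 dogs at 0.37, 0.13 and -0.05. The probe sets were read from the same arrays, and the values over all paced dogs describe 12 points. The SD between isolations of a dog was 0.12 for 1604997_at, 0.19 for 1595971_s_at and 0.26 for FMC1, against a median of 0.31 over all probe sets tested.

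The closest relatives of TIMM8A are the other small TIM proteins, and none of them passed the test against Day-0. TIMM8B, the paralog of TIMM8A, read 9.57, 9.36 and 9.06 in the Day-0 dogs and 9.39, 9.00 and 9.35 in the Day-3 dogs. It read 8.92, 8.91 and 8.35 in the Week-1 dogs, 8.75, 8.90 and 8.32 in the Week-2 dogs, and 8.95, 9.21 and 9.24 in the End-stage dogs. The Week-1 and Week-2 dogs all lay below Day-0, as in 9.4% and 9.21% of all probe sets, while the Day-3 and End-stage dogs overlapped it. Its log2 differences from Day-0 were -0.08, -0.60, -0.68 and -0.20 in order of pacing (SE 0.19 each), with a smallest limma adjusted p of 0.174, at Week-2. Whether TIMM8A and TIMM8B differed in these differences was not tested.

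TIMM9 and TIMM10 form the main ring that carries ADP/ATP carriers and similar proteins across the intermembrane space. TIMM10 differed from Day-0 by -0.38, -0.25, -0.22 and -0.32 in order of pacing (SE 0.16 each), with adjusted p of 0.557 to 0.702 by limma. TIMM9 1585549_s_at differed by -0.13, -0.12, -0.17 and -0.17 (SE 0.14 each). TIMM10B, which docks that ring on the TIM22 complex, differed by 0.12, -0.04, 0.00 and -0.08. TIMM22, the insertase channel itself, was the highest of the TIMM and TOMM probe sets at End-stage, by 0.46 in 1589453_at (SE 0.19, limma adjusted p = 0.528), and its other probe set gave 0.26. No probe set with the single symbol TIMM13, TIMM23, ATPAF1 or ATPAF2 was analysed here. SLC25A13 had 1 probe set, 1591429_at, which the filter on dim probe sets left out: its log2 signal averaged 4.14 over the 15 dogs, against a lowest tested level of 4.508, and ran from 3.48 to 5.26.

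In the TOM complex, TOMM5, a small subunit of the entry gate, read 9.13, 9.43 and 9.39 in the Day-0 dogs, 8.98, 8.93 and 9.03 in the Day-3 dogs and 8.93, 9.03 and 8.80 in the Week-1 dogs. It read 8.75, 8.79 and 8.90 in the Week-2 dogs and 8.71, 9.13 and 9.17 in the End-stage dogs. Only the End-stage dogs overlapped Day-0. In the other paced groups TOMM5 lay below it without overlap, as did 6.44%, 9.4% and 9.21% of all probe sets. Its log2 differences were -0.34, -0.40, -0.50 and -0.32 in order of pacing (SE 0.13 each), and the smallest adjusted p, at Week-2, was 0.130 by limma. With all 45 arrays fitted and the dog as a random block, TOMM5 passed at Week-1 (limma adjusted p = 0.0379) and Week-2 (0.00396). That fit used 1 correlation of 0.292 between the arrays of a dog for all probe sets. Where dogs differed more than this, isolations of a dog counted in part as replicates. The fit called 1.2% of all probe sets lower at Day-3, 1.37% at Week-1, 1.68% at Week-2 and 1.14% at End-stage. TOMM70, a receptor for carrier proteins, differed by 0.05, -0.18, -0.20 and -0.17, and the 3 probe sets of TOMM22, the central receptor, stayed between -0.10 and 0.17. TOMM34, a cytosolic co-chaperone, gave the highest single value, 0.76 at Week-1, but its dogs spread widely, with an SD of up to 1.18 in a group (limma adjusted p = 0.820).

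Of the 23 TIMM and TOMM probe sets, 21 passed the filter on dim probe sets. By limma, 0 of the 21 were called at Day-3, Week-1, Week-2 or End-stage, or over all paced dogs, against Day-0. At an unadjusted p under 0.05 there were 2 in each paced group, where 8.07% of all probe sets lay under it at Day-3, 9.0% at Week-1, 11.2% at Week-2 and 8.23% at End-stage, and 3 over all paced dogs, where 11.7% did. Over all 14302 probe sets, the calls were 0.0% lower and 0.0% higher at Day-3, 0.00699% and 0.021% at Week-1, 0.042% and 0.042% at Week-2, and 0.014% and 0.0% at End-stage. Over all paced dogs they were 0.161% lower and 0.14% higher. The median log2 difference of the 21 was -0.01, 0.02, -0.09 and -0.04 in order of pacing, beside 0.00, -0.03, -0.01 and -0.02 for all probe sets tested. In single paced groups 1, 5, 5 and 4 of the 21 were lower without overlap in order of pacing, and 0, 2, 2 and 1 higher. Of all probe sets 6.44%, 9.4%, 9.21% and 7.94% were lower in this way. In none of the 21 did all 12 paced dogs lie below Day-0. The lowest of the 21 over all paced dogs, TIMM8B at -0.39, was nearer 0 than all 3 probe sets of TIMM8A and FMC1, a difference that the choice of the members builds in.

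**Figure D2:**
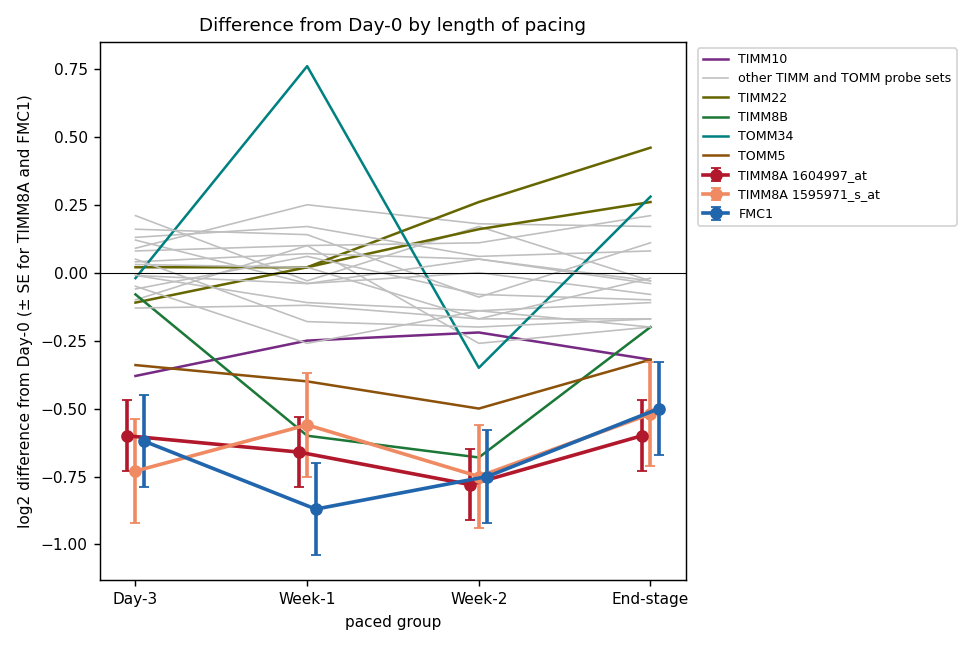
Log2 difference from Day-0 (vertical axis) at Day-3, Week-1, Week-2 and End-stage (horizontal axis) for the 2 TIMM8A probe sets and FMC1 (thick lines with points, ± SE) and the 21 TIMM and TOMM probe sets tested (thin lines). TIMM8A and FMC1 stay between -0.50 and -0.87, TIMM8B reaches -0.68 at Week-2, and most other lines lie near 0.

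Carriers of the inner membrane are the main cargo of the small TIM rings. In 3 of the 16 carrier probe sets tested, those of SLC25A5 and SLC25A12, all 12 paced dogs lay below Day-0. The same held in 1.61% of all probe sets, and 0 of the 16 passed the test. SLC25A5, an ADP/ATP carrier of the inner membrane, read 9.63, 9.58 and 9.49 in the Day-0 dogs (1586669_at). It read 9.33, 9.02 and 9.15 in the Day-3 dogs and 9.15, 9.03 and 9.25 in the Week-1 dogs. It read 8.96, 9.20 and 8.90 in the Week-2 dogs and 8.92, 9.23 and 9.26 in the End-stage dogs. All 12 paced dogs lay below all Day-0 dogs, and so they did in 1604231_at. The pooled log2 difference of SLC25A5 was -0.45 (SE 0.10) in 1586669_at and -0.49 (SE 0.15) in 1604231_at, with adjusted p of 0.0711 and 0.157 by limma, so neither passed the threshold. With all 45 arrays and the dog as a random block, 1586669_at passed in all 4 paced groups, with limma adjusted p of 0.000669 to 0.0281. That fit can count isolations of a dog in part as replicates. SLC25A12, an aspartate/glutamate carrier and a client of human TIMM8A, differed from Day-0 by -0.42, -0.35, -0.46 and -0.59 in order of pacing (SE 0.17 each) and its paced dogs, at 7.51 to 8.21, all lay below the Day-0 dogs, at 8.22 to 8.40 (limma adjusted p = 0.165 over all paced dogs; 0.0173 at End-stage with all 45 arrays and the dog as a random block). SLC25A4 and SLC25A6, also ADP/ATP carriers, overlapped Day-0 over all paced dogs. SLC25A4 differed by -0.22 (SE 0.17) there, and SLC25A6 by -0.21 in 1592155_x_at, 0.07 in 1601975_s_at and -0.04 in 1604119_at. SLC25A38, a glycine carrier, lay on the other side of 0, with 0.03, 0.81, 0.70 and 0.41 in 1598629_at (SE 0.30 each). The 11 carriers tested had medians of -0.12, -0.05, -0.25 and -0.17 in order of pacing, and the 4 other small TIM genes -0.11, -0.19, -0.20 and -0.18.

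**Figure D3:**
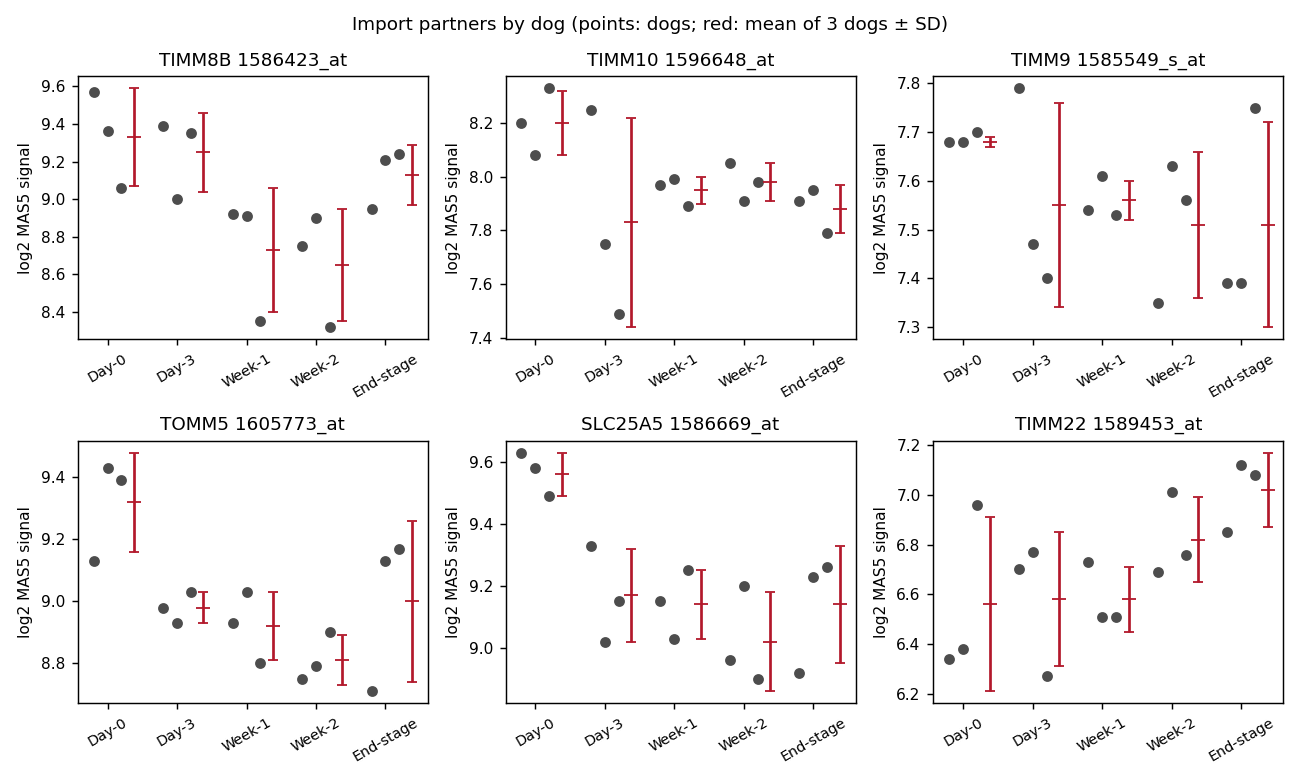
Log2 signal (vertical axes, each with its own range) by dog in the 5 groups (horizontal axes) for TIMM8B, TIMM10, TIMM9, TOMM5, SLC25A5 and TIMM22. Points are dogs and red bars are means of 3 dogs ± SD; of these 6, SLC25A5 has all 12 paced dogs below all Day-0 dogs, and TIMM22 is highest at End-stage.

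Yeast Fmc1 acts on the F1 part of ATP synthase, and no subunit of that part passed the test on the means per dog. ATP5F1A, the alpha subunit, differed by -0.16, -0.21, -0.19 and -0.18 in order of pacing in 1583555_s_at (SE 0.19 each), and ATP5F1B, the beta subunit, by -0.07, -0.18, -0.14 and -0.12. Over all paced dogs the other ATP5F1A probe sets gave -0.39 (1583554_at), -0.23 (1604170_at) and -0.12 (1583553_at). In 1583554_at the difference was -0.06 at Week-1 and -0.57 at End-stage, where its dogs all lay below Day-0, as in 7.94% of all probe sets. ATP5F1C, the gamma subunit, had all 12 paced dogs, at 10.72 to 11.37, below the Day-0 dogs, at 11.39 to 11.53, in 1600781_at, a log2 difference of -0.43 (SE 0.12, limma adjusted p = 0.128). With all 45 arrays and the dog as a random block, 1600781_at passed at Day-3 (-0.48, limma adjusted p = 0.0314) and Week-1 (-0.46, 0.0373). The other ATP5F1C probe sets gave -0.26 and -0.22 over all paced dogs. Of the 8 ATP synthase subunit genes tested, inner membrane subunits included, 7 were below 0 at Day-3 and Week-1 and 8 at Week-2 and End-stage, and 0 passed the test (limma; 1, 1, 2 and 2 probe sets at an unadjusted p under 0.05). TMEM70, which helps to build the membrane part of ATP synthase, was the only other assembly factor tested and differed by 0.08, 0.50, 0.07 and 0.27 (1595449_at, SE 0.29 each).

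Lists of import and assembly genes, TIMM8A and FMC1 left out, held 163 genes in 12 lists, of which 87 were tested with 135 probe sets. By limma on the means per dog, 0 of the 135 passed the threshold in any paced group or over all paced dogs, and 24, 19, 24 and 16 had an unadjusted p under 0.05 in order of pacing, and 31 over all paced dogs. Of all probe sets, 8.07%, 9.0%, 11.2% and 8.23% were under it in order of pacing, and 11.7% over all paced dogs. With all 45 arrays and the dog as a random block, 9, 5, 4 and 2 of the 135 passed, all lower. The same fit called 1.2%, 1.37%, 1.68% and 1.14% of all probe sets lower, and it can count isolations of a dog in part as replicates. Each gene by its brightest probe set, 65 of 87 were below Day-0 at Day-3, 60 at Week-1, 69 at Week-2 and 65 at End-stage. The median log2 difference of the 87 was -0.13, -0.12, -0.16 and -0.15, beside 0.00, -0.03, -0.01 and -0.02 for all probe sets. In 5 of the 135 probe sets, those of ATP5F1C, MTX2, SLC25A12 and SLC25A5 (both of its probe sets), all 12 paced dogs lay below Day-0, as in 1.61% of all probe sets. In 0 of the 135 did all lie above, as in 0.909% of all.

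The largest list, of assembly factors of respiratory complexes, had 22 genes tested, of which 19, 18, 21 and 18 were below 0 in order of pacing, with medians of -0.17, -0.15, -0.22 and -0.20. BCS1L, the AAA protein that inserts the Rieske subunit into complex III, differed by -0.68 at Day-3 (SE 0.17, limma adjusted p = 0.276) and by -0.39, -0.46 and -0.32 at Week-1, Week-2 and End-stage. With all 45 arrays and the dog as a random block it passed at Day-3 (limma adjusted p = 0.0036) and Week-2 (0.0485). COX20, a chaperone of a complex IV core subunit, differed by -0.64, -0.82, -0.96 and -0.20 (SE 0.25 each), with a limma adjusted p of 0.130 at Week-2, and passed at Day-3, Week-1 and Week-2 in the fit on all 45 arrays (limma adjusted p of 0.000406 to 0.0366). At End-stage COX20 had 8.69, 8.98 and 8.85, within the Day-0 range of 8.82 to 9.23 except for dog 1. In the list of outer membrane sorting and cristae genes, 8 were tested and 6, 7, 6 and 6 were below 0, with medians of -0.31, -0.20, -0.13 and -0.23. IMMT, the core of the cristae junction complex, differed by -0.55, -0.30, -0.36 and -0.32 in 1604353_at, and MTX2, of the outer membrane sorting machinery, by -0.33, -0.26, -0.27 and -0.27. In the fit on all 45 arrays IMMT (limma adjusted p = 0.0114) and MTX2 (0.0366) passed at Day-3.

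Of the 87 list genes, 22, 27, 18 and 22 lay above Day-0 in order of pacing, and 23 over all paced dogs, where GFER, SLC25A38 and ROMO1 were the highest. GFER, the oxidase of the disulfide relay that folds small TIM proteins, differed by 0.76, 0.42, 0.73 and 0.52 (SE 0.33 each), with the Day-0 dogs spread between 3.84 and 5.45 and limma adjusted p of 0.430 to 0.792. AIFM1, which in human cells holds that relay's import receptor, differed by -0.70, -0.64, -0.53 and -0.58 in 1604360_at (SE 0.24 each), and passed at Day-3 and Week-1 in the fit on all 45 arrays (limma adjusted p of 0.0264 and 0.0392). Its dimmer probe set 1600558_at lay on the other side of 0. There the means were 4.52, 4.66, 4.82 and 4.45 in order of pacing, against 4.41 ± 0.68 (SD) at Day-0. ROMO1, a small inner membrane protein linked to TIM23, differed by 0.67, 0.32, 0.51 and 0.38 (SE 0.23 each, limma adjusted p of 0.438 to 0.766). The TIM23 list had medians of 0.00, 0.03, -0.03 and -0.11 over 9 genes, and the TOM list 0.00, 0.04, -0.18 and -0.06 over 6. The presequence peptidase list had medians of -0.08, -0.08, -0.15 and -0.13 over 5 genes. The list of general mitochondrial content genes, such as VDAC1 and HSPD1, had medians of -0.14, -0.12, -0.14 and -0.08 over 9 genes.

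When Week-1 dog 1 and End-stage dog 1 were left out, limma again called 0 of the 21 TIMM and TOMM probe sets and 0 of the 135 list probe sets at Week-1, End-stage or over all paced dogs. The single differences, medians, marker values and correlations without these dogs were added after the data were seen. TIMM8B then differed from Day-0 by -0.70 at Week-1 and -0.10 at End-stage, TOMM5 by -0.40 and -0.17, and TIMM22 1589453_at by -0.05 and 0.54. SLC25A5 1586669_at differed by -0.43 and -0.32, SLC25A12 by -0.38 and -0.54, and COX20 by -1.04 and -0.13. SLC25A4 differed by -0.10 and -0.02. The SLC25A6 probe sets differed by 0.00, 0.20 and 0.16 at Week-1 and by 0.13, 0.28 and 0.19 at End-stage. ATP5F1C 1600781_at differed by -0.36 and -0.28, and ATP5F1A 1583555_s_at by -0.09 and -0.03. Several End-stage differences were thus nearer 0, those of TIMM8B, TOMM5, COX20 and the ATP synthase subunits among them. The median of the 87 list genes was -0.09 at Week-1 and -0.09 at End-stage, with 61 and 60 genes below 0, and 12 and 8 of the 135 probe sets had an unadjusted p under 0.05. Over all paced dogs 25 did, and in 6 all 10 remaining paced dogs lay below Day-0. The matching shares of all probe sets without these dogs were not counted, so whether the list counts exceed them was not tested. The ATP synthase subunit list had medians of -0.08 and -0.03, the respiratory complex assembly list -0.15 and -0.17, the sorting and cristae list -0.10 and -0.13, the carrier list -0.10 and -0.20, and the 21 TIMM and TOMM probe sets -0.02 and -0.10.

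**Figure D4:**
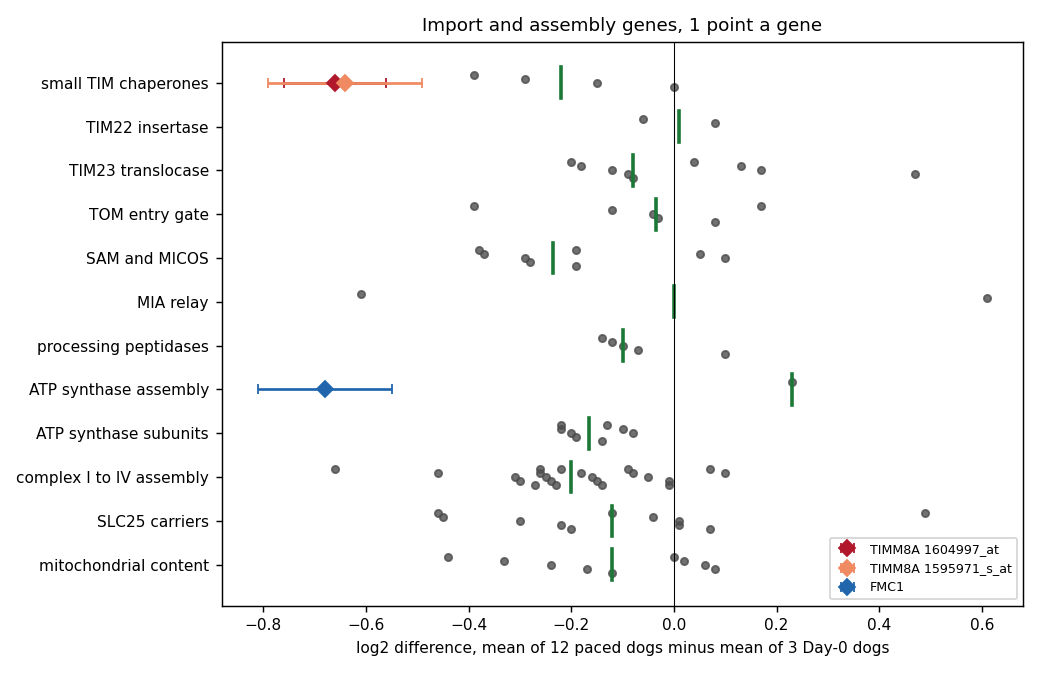
Log2 difference between the means of the 12 paced dogs and the 3 Day-0 dogs (horizontal axis) for the 87 list genes tested (grey, 1 point a gene by its brightest probe set) in 12 lists (vertical axis); green bars are list medians. TIMM8A and FMC1, drawn as diamonds ± SE in the lists they would belong to, lie at -0.64 to -0.68.

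Among 7671 probe sets with a single symbol, those whose signal over the 15 dogs was most like each member were ranked by Pearson r. Because all 15 dogs include the split between paced and unpaced dogs, the r over the 12 paced dogs is given after it. For TIMM8A 1604997_at these were SLC25A5 (0.92, then 0.76), AFG3L2 (0.87, then 0.75), ANK1 (0.87, then 0.59), NBN (0.87, then 0.76) and NSDHL (0.86, then 0.59), and the most opposite was MCL1 (-0.92, then -0.75). For TIMM8A 1595971_s_at they were ACOT13 (0.86, then 0.55), CYC1 (0.85, then 0.40), PRDX2 (0.85, then 0.63), BCS1L (0.85, then 0.68) and TMEM223 (0.84, then 0.45). For FMC1 they were NDUFA2 (0.90, then 0.72), NOSTRIN (0.87, then 0.74), MRPL38 (0.86, then 0.60), TOMM5 (0.86, then 0.58) and ANKMY2 (0.85, then 0.79), and the most opposite was UFM1 (-0.89, then -0.72). The 2 probe sets of TIMM8A thus had no gene in common among their 5 most alike. Without Week-1 dog 1 and End-stage dog 1, the r over 13 dogs of the 5 most alike genes lay between 0.86 and 0.94 for 1604997_at, 0.84 and 0.90 for 1595971_s_at, and 0.84 and 0.91 for FMC1. All of these values share the same arrays and the same 15 dogs, and they were picked as the highest of many.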

How the data were processed

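Arrays of 45 RNA isolations from 15 dogs were analysed. The deposited values are linear MAS5 signal intensities per probe set, which the authors made with GCOS 1.4, per the submitters' processing notes; the trimmed mean was between 150.02 and 150.026 on every array, so the authors had scaled each array. After 77 control probe sets, 23836 remained; 10549 carry 1 symbol, 138 several and 13149 none in the 2016 annotation, updated through the RefSeq gene table of the assembly UU_Cfam_GSD_1.0. The deposited intensities were converted to log2, and a dog's 3 arrays were averaged to give 1 replicate; the number of dogs limits the precision. The dimmest 40% of probe sets (mean signal under 22.8) were left out and 14302 were tested with limma 3.58.1 in R 4.3.3 (lmFit, 1 mean per group, eBayes with trend, two-sided, Benjamini-Hochberg over all probe sets, threshold 0.05). The fit was tested on simulated data.

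TIMM8A and FMC1, the gene lists and the settings were chosen with earlier results of these data known. Their differences from Day-0 and those with Week-2 have no test; Week-1 minus Day-3, End-stage minus Day-3 and End-stage minus Week-1 were tested. Named were all probe sets of the members; of the comparison genes, those past the threshold plus the 4 with the smallest p; per list up to 4 genes by smallest p; and the direct partners. TOMM34, SLC25A4 and SLC25A6, outside that rule, were chosen after their values were seen. Whether equal dog numbers pair dogs was checked from the Pearson r of their deviations from group means: all 3 pairs exceeded 0.1 for Week-1 and Day-3 (0.167, 0.296 and 0.318) and for End-stage and Week-2 (0.230, 0.242 and 0.102), which comes from the data, not the labels. The highest r of all, 0.353, was that of End-stage dog 1 and Week-1 dog 1, whose arrays resembled each other. The values of 0.167 and 0.230 also rest on 1 of these dogs. Filter, scaling, offset, averaging, trend, block and left-out dogs or isolations were varied. No sequence is shown because none was given.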

Additional observations from a re-analysis of the deposited data

How the results depend on the processing

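TIMM8A and FMC1 kept a negative difference from Day-0 in every paced group under every setting run. They were chosen on these differences in the same dogs, so the kept sign is no support for a decrease. Leaving out 1 dog at a time, the log2 differences at Day-3, Week-1, Week-2 and End-stage ran from -0.73 to -0.50, -0.75 to -0.59, -0.81 to -0.73 and -0.65 to -0.55 for TIMM8A 1604997_at. They ran from -0.94 to -0.60, -0.77 to -0.42, -0.96 to -0.62 and -0.73 to -0.38 for 1595971_s_at, and from -0.77 to -0.45, -1.02 to -0.73, -0.90 to -0.61 and -0.65 to -0.36 for FMC1. Most of the extremes came from leaving out Day-0 dog 1 or 2. In the 3 tested pairs of paced groups no member passed the threshold under any setting; the lowest adjusted p was 0.8197, for FMC1 in End-stage minus Day-3. With the dog number as a replicate block, FMC1 in Week-1 minus Day-3 was -0.25 with an adjusted p of 0.8367 by limma. The block changed no call of the members in the tested pairs, nor of the TIMM, TOMM or list probe sets in single paced groups. Over all probe sets, calls rose from 4 to 17 at Week-1 and from 12 to 88 at Week-2, and fell from 2 to 0 at End-stage. Over all paced dogs they rose from 43 to 219, where the list probe sets were not checked. With all 45 arrays and the dog as a random block, the TIMM and TOMM calls were 1 at Week-1 and 1 at Week-2, both TOMM5 and lower, against 0. On the means per dog, 0 to 12 of all probe sets were called in a paced group against Day-0. The fit on all 45 arrays, where isolations can count in part as replicates, called 273 to 483. Those called lower were 1.2%, 1.37%, 1.68% and 1.14% of all probe sets in order of pacing. In that fit the list calls were 9 at Day-3, 5 at Week-1, 4 at Week-2 and 2 at End-stage, all lower, TOMM5 again included; SLC25A5 was among them in all 4 groups, and SLC25A11 and UQCC1, named here after their values were seen, at Day-3. With only the 6 dogs compared, 40 of all 14302 probe sets were called at Week-2, against 12 in the main fit. Among the list probe sets 1 was called there, COX20 (-0.96, limma adjusted p = 0.0335). The cause of these changes in calls was not tested. In the other settings no TIMM, TOMM or list probe set was called in a single paced group against Day-0. With 3 dogs a group, dim signals and small differences are beyond what these arrays can resolve.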
